A study of Mus musculus with 4 samples.

Results

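The 8 genes described here encode subunits of the AP-1 transcription factor family and its BATF branch: Fos, Fosb and Fosl2 of the Fos family, Jun, Junb and Jund of the Jun family, and Batf and Batf3. They were taken by gene symbol, and all 8 were found among the 11027 genes listed for each library. Messenger RNA was measured by RNA-seq in CD4+ T cells of wild-type C57BL/6 mice aged 7 to 8 weeks, with spleen and lymph nodes as the source. Naive cells were activated under neutral conditions and given either a Tox2 retrovirus marked with GFP or a virus with GFP alone, and the sorted GFP+ cells were cultured further. Both cultures held antibodies against IFN-gamma, IL-4 and IL-2; the Th0 culture held nothing more, and the Tfh-like culture also held the cytokine IL-6. There was 1 library for each combination, and 4 values in a row follow this library order: Th0 GFP, Th0 Tox2, Tfh-like GFP, Tfh-like Tox2. The study asked how Tox2, an HMG-box DNA-binding protein, acts in the differentiation of T follicular helper (Tfh) cells.

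AP-1 proteins bind DNA as dimers held together by a leucine zipper. Jun proteins pair with each other or with Fos and BATF proteins, whereas Fos proteins need a Jun partner. Fos, Fosb and Jun are classic immediate early genes, whose transcripts appear quickly after T-cell receptor signalling and are short-lived. BATF and BATF3 are small proteins that lack the activation domains of Fos, pair with JUN proteins, and bind composite sites together with IRF4 or IRF8; BATF is required for Th17 and Tfh differentiation in mice.

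The libraries held 13015283 to 13673774 counts. Counts of Tox2 were 144, 35297, 851 and 32246 in library order, so each library followed the virus named in its label. Of 5 CD4+ T-cell markers the 4 listed (Cd3e, Cd3d, Cd4 and Thy1) summed to 2504 to 3100 CPM (counts scaled to library size) in a library, whereas the listed B-cell and myeloid markers summed to 0.766 to 1.73 and 1.30 to 2.90. The CD8+ T-cell marker Cd8b1, 1 of 2 on its list that was listed, had 135, 127, 138 and 206 counts, up to 15.4 CPM, highest in the Tfh-like Tox2 library, and its part in the results was not tested. Of the NK-cell list only Eomes, which T cells can also express, was listed, at 6.32, 20.4, 0.460 and 3.59 CPM; it differed with culture and virus, and its part in the results was not tested. With 1 library per group no difference has a replicate check. In such bulk samples, fewer cells of a type and less RNA per cell cannot be told apart.

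The start regions of 4 of the genes are shown because they share a short motif and include genes with culture folds of opposite sign. Fos and Fosb were lower in Tfh-like, though Fos did not pass the test given below, and Junb and Batf were higher. Each sequence runs 5′ to 3′ on the gene's strand, from 250 bases before to 50 bases after the annotated start (RefSeq, GRCm38.p6), and capitals mark TGACG, the first part of the cyclic AMP response element, searched on both strands.
Fos, chr12:85473640-85473939, plus strand: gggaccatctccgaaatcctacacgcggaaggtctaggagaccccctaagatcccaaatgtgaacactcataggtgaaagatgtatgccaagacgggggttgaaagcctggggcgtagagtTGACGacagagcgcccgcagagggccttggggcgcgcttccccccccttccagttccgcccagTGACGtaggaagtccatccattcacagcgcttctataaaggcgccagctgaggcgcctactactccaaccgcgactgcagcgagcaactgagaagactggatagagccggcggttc
Fosb, chr7:19309996-19310295, minus strand: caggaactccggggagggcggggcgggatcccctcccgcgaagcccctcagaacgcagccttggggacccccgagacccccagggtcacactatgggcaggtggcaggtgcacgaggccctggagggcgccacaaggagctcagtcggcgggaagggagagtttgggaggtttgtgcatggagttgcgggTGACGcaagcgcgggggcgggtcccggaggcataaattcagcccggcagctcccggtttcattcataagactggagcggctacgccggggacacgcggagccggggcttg
Junb, chr8:84978699-84978998, minus strand: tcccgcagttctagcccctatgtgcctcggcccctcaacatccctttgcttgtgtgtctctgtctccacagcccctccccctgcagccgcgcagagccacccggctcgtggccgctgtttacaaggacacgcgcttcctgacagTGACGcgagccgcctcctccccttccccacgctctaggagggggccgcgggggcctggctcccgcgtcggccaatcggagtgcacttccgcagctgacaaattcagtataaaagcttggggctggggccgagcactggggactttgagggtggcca
Batf, chr12:85686470-85686769, plus strand: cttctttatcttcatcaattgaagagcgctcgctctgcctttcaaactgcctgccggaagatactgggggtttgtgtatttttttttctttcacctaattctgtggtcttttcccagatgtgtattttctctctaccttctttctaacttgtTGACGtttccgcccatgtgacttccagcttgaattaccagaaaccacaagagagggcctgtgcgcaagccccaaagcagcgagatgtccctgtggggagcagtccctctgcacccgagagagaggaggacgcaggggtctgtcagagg
TGACG was found in these 4 of the 8 windows, and in 31.5% of the 11358 windows of genes listed in the libraries (20.8% of all 32851 windows). The full element TGACGTCA, which contains TGACG, was found in 0 of the 8 and in 3.15% of the windows of listed genes. The AP-1 site TGANTCA was in 0 of the 8 (4.89% of the windows of listed genes), and the STAT motif TTCNNNGAA in 1, that of Batf3 (6.71%). A match describes letters in these windows only. The windows of Jund, Fosl2 and Batf3 do not hold the start of the gene's span in GENCODE M21. For Jund that start is 70698949, and the window is 70697489 to 70697788.

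Junb and Jund were the most abundant of the 8 in every library, followed by Batf and Fosl2; in the Tfh-like Tox2 library Batf came close to Jund. The deposited FPKM scale divides counts by a length that, for these genes, was in proportion to their merged annotated exons. This length was 9680 bases for Fosl2 and 1406 for Batf, and it need not be that of the transcripts present. Comparisons between genes depend on it, and counting intervals do not cover it. Junb was at 393, 306, 696 and 562 FPKM in library order. It ranked between 27th and 74th of the 11027 listed genes. Jund was at 324, 208, 276 and 250.3 FPKM, and its span of levels, 1.56-fold from lowest to highest, was the narrowest of the 8.
Below these came Batf, at 23.0, 24.2, 104 and 209 FPKM, far higher in both Tfh-like libraries. Fosl2, which encodes FRA-2, was at 9.87, 13.6, 47.6 and 33.0 FPKM. Jun was at 3.69, 3.84, 14.6 and 11.4 FPKM. The immediate early genes Fos (3.25, 4.39, 2.01 and 3.02 FPKM) and Fosb (1.44, 2.17, 0.659 and 1.22 FPKM) were low throughout. Batf3 was at 0.147 and 0.182 FPKM in the Th0 libraries and at 1.54 and 1.66 in the Tfh-like libraries, on 4, 5, 40 and 44 counts.
The order Junb, Jund, Batf, Fosl2 held in all 4 libraries with no overlap of the exact 95% Poisson intervals, which cover counting error only. Lower in the order, the intervals of Jun and Fos overlapped in both Th0 libraries, those of Fos and Batf3 in the Tfh-like GFP library, and those of Batf3 and Fosb in the Tfh-like Tox2 library.

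**Figure D1:**
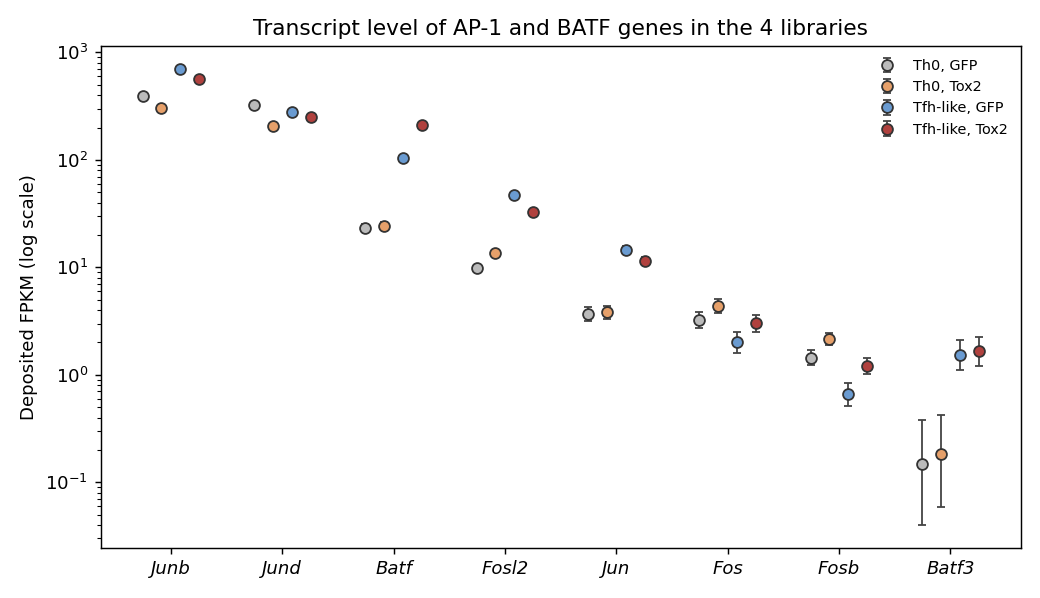
Deposited FPKM (log axis) of the 8 genes, ordered from left to right by their level in Th0 with GFP; each point is 1 library, and bars are exact 95% Poisson intervals for counting error, often smaller than the point. Batf, Fosl2, Jun, Junb and Batf3 lie higher in both Tfh-like libraries than in both Th0 libraries, Fos and Fosb lie lower, and the Jund levels of the cultures overlap.

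Between the cultures, 5 of 7 genes passed the test: Batf, Jun, Fosl2 and Junb rose in Tfh-like and Fosb fell. Batf3 is left out of this count, because only its Tfh-like libraries reached the CPM of 1 needed to be tested, so it had to differ. The test is edgeR's quasi-likelihood test of the culture in an additive fit of culture and virus to all 4 libraries, with Benjamini-Hochberg adjusted p under 0.05 over 10960 genes. Over all genes 14.3% passed upward and 9.96% downward (24.2% in all). Before adjustment 37.6% of all genes and 6 of the 7 had a p under 0.05. The fit's only measure of spread is the difference of the virus effect between the cultures, moderated across genes, so its p-values do not measure replicates of a group.

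Batf counts were 551, 587, 2374 and 4882 in library order. Both Tfh-like libraries were far above both Th0 libraries, 4.44-fold with GFP (counting interval 4.04 to 4.88) and 8.63-fold with Tox2 (7.92 to 9.42). The additive log2 fold was 2.63 (SE 0.22, edgeR adjusted p = 0.000696). Batf3, the paralog known best from dendritic cells, was 10.3-fold higher with GFP (3.72 to 39.6) and 9.13-fold with Tox2 (3.63 to 29.5), given without a test for the reason above. These wide intervals rest on the 4 and 5 counts of the Th0 libraries. Its log2 fold with GFP was 2.85 with the prior count of 2 and 1.87 with a prior count of 10. Counts of the dendritic-cell marker Xcr1 were 10, 3, 1 and 21; it is the only 1 of the 5 markers of that list analysed here, and its part in the result was not tested.

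Jun, the founding Jun protein gene, had 200, 211, 758 and 604 counts. Its cultures did not overlap, and its log2 fold was 1.77 (SE 0.14, edgeR adjusted p = 0.000537). Fosl2, whose protein restrains parts of the Th17 program, had 1625, 2271, 7498 and 5306 counts, again with both Tfh-like libraries higher. The ratio of the cultures was 4.75 with GFP (4.50 to 5.02) and 2.43 with Tox2 (2.31 to 2.55), and the log2 fold over both was 1.76 (SE 0.22, edgeR adjusted p = 0.00267).

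Junb, the partner of BATF in Th17 cells, had 15396, 12123, 26093 and 21488 counts. Both Tfh-like libraries were above both Th0 libraries by less than 2-fold, 1.74 with GFP (1.71 to 1.78) and 1.84 with Tox2 (1.80 to 1.88), and the log2 fold was 0.84 (SE 0.09, edgeR adjusted p = 0.00175). The annotated span of Junb (chromosome 8, 84974484 to 84978718, minus strand, GRCm38, GENCODE M21) overlaps that of Prdx2 on the plus strand by 351 bases. Prdx2, an abundant peroxiredoxin gene, had 5859, 5029, 8992 and 6131 counts and also rose with the culture (log2 fold 0.50, edgeR adjusted p = 0.0234). Without a known strand setting, reads in the shared bases cannot be assigned, and their part in the result was not tested.

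Fosb, an immediate early Fos gene, had 153, 234, 67 and 126 counts in library order. It was lower in Tfh-like with either virus and fell by 0.98 on the log2 scale (SE 0.20, edgeR adjusted p = 0.0146), a call that was lost with DESeq2 (adjusted p = 0.0595). Fos had 130, 178, 77 and 118 counts, also lower in both Tfh-like libraries. Its log2 fold of -0.62 (SE 0.20) did not pass (edgeR adjusted p = 0.0656), although both counting intervals of the ratio lay below 1: 0.610 with GFP (0.454 to 0.815) and 0.688 with Tox2 (0.541 to 0.873).

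Jund, a Jun gene that is expressed constitutively in many cells, had 9201, 5992, 7506 and 6933 counts. Its culture ratio was 0.840 with GFP and 1.20 with Tox2, on opposite sides of 1, and its additive log2 fold was 0.01 (SE 0.14, edgeR adjusted p = 0.982); the sign of this value changed under 4 other settings. The spans of Jund and Jun overlap those of the antisense genes Gm11175 and Junos by 919 and 689 bases; these were not analysed here, so their counts may hold reads of those genes.

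In single pairs of libraries, called 2-fold apart where the log2 fold reached 1 in size and the counting interval excluded no difference, 3 of the 7 genes other than Batf3 were higher in Tfh-like cells among the GFP libraries (7.78% of all genes) and 1, Fosb, was lower (3.11%; 10.9% in either direction). Among the Tox2 libraries, 3 were higher (6.56% of all genes) and 0 lower (2.86%; 9.43% in either direction). The 3 higher genes were Fosl2, Jun and Batf with either virus. Batf3 was also past this threshold with either virus.

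**Figure D2:**
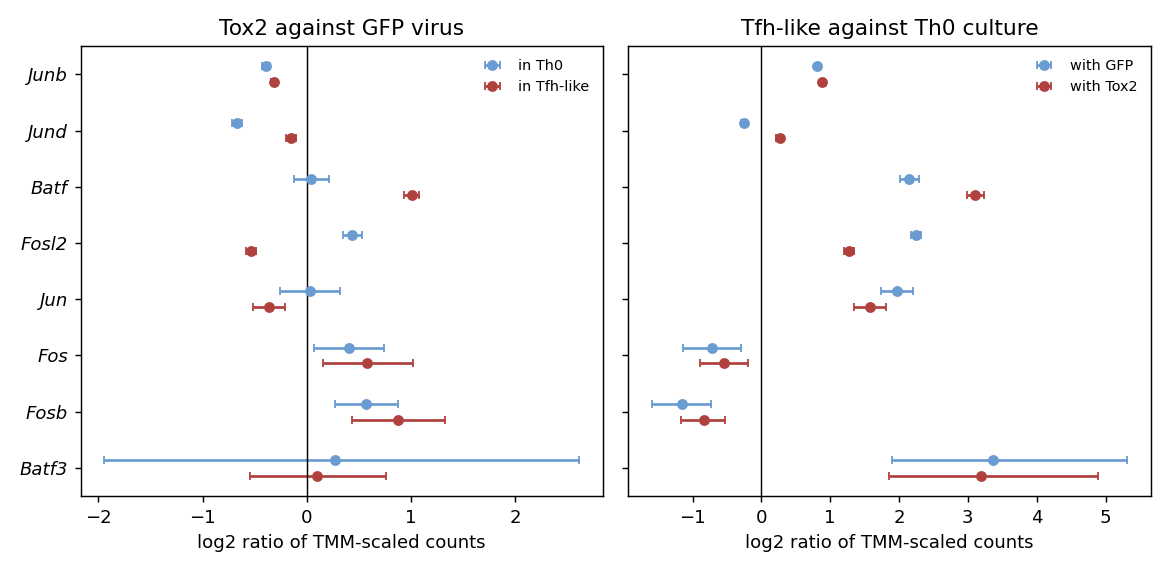
Log2 ratio of TMM-scaled counts for Tox2 against GFP (left) and Tfh-like against Th0 (right), 1 point for each pair of libraries, with exact 95% conditional binomial intervals for counting error. On the left the Th0 and Tfh-like intervals do not overlap for Batf, Fosl2, Jund and, by a narrow margin, Junb. On the right 5 genes lie above 0 and Fos and Fosb below it with either virus.

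With the Tox2 virus, 0 of the 8 genes passed over both cultures, where 6.87% of all 10960 genes did (4.09% higher and 2.78% lower); DESeq2 and limma-voom also called 0. Before adjustment, 5 of the 8 had an edgeR p under 0.05, as did 27.4% of all genes: Fos, Fosb, Junb, Jund and Batf. The first 4 had a counting interval on the same side of no difference in both cultures. Fosb was 1.48-fold higher in Th0 (1.20 to 1.83) and 1.83-fold in Tfh-like (1.35 to 2.51), with an additive log2 fold of 0.70 (SE 0.20, edgeR adjusted p = 0.0817). Fos was 1.32-fold (1.05 to 1.67) and 1.49-fold higher (1.11 to 2.02), an additive log2 fold of 0.49 (SE 0.20, edgeR adjusted p = 0.174). In both cultures the Tox2 library was thus above the GFP library for these immediate early genes.
Junb and Jund lay on the other side. The Junb ratio was 0.762 in Th0 (0.744 to 0.780) and 0.803 in Tfh-like (0.789 to 0.818), with an additive log2 fold of -0.35 (SE 0.09, edgeR adjusted p = 0.0723). Jund was at 0.630 (0.610 to 0.651) and 0.901 (0.872 to 0.931), an additive log2 fold of -0.41 (SE 0.14, edgeR adjusted p = 0.125). The GFP libraries held the higher count of both genes in each culture. With each library's trend on gene length removed, the log2 folds in Th0 were smaller in size. They were -0.29 and not -0.39 for Junb, and -0.51 and not -0.67 for Jund.

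Batf was 2.01-fold higher with Tox2 in the Tfh-like culture (1.91 to 2.11) and 1.03-fold in Th0 (0.916 to 1.16). In Tfh-like it was the 1 gene of the 8 that was 2-fold apart with Tox2 (2.86% of all genes were 2-fold higher there and 1.90% lower, 4.75% together); in Th0 0 of the 8 were (3.18% higher and 1.56% lower, 4.74% together). The value sits at the threshold: its log2 fold was 1.004, and 0.98 with DESeq2's size factors, where it was not called. With each library's length trend removed the log2 fold of Batf with Tox2 was 0.22 in Th0, where it was 0.04 without that step. The additive fit, which averages the cultures, gave 0.56 (SE 0.22, edgeR adjusted p = 0.158). The difference of the log2 folds, Tfh-like minus Th0, was 0.96 (counting interval 0.78 to 1.14); 97.4% of all genes had a lower difference.
Fosl2 differed by nearly the same amount in the other direction. It was 1.35-fold higher with Tox2 in Th0 (1.27 to 1.44) and at 0.690 in Tfh-like (0.666 to 0.715), a difference of -0.97 (-1.07 to -0.87), and 2.44% of all genes had a lower one. With length trends removed its log2 folds were 0.27 in Th0 and -0.62 in Tfh-like, against 0.43 and -0.53. Jun had ratios of 1.02 (0.837 to 1.24) and 0.777 (0.697 to 0.866), a difference of -0.39 (-0.71 to -0.07). For Jund the difference was 0.52 (0.45 to 0.58) and for Junb 0.08 (0.03 to 0.12). The Junb difference was lost with length trends removed, where its log2 fold was -0.29 in both cultures. That step left Jund at -0.51 in Th0 and -0.11 in Tfh-like. Fos, Fosb and Batf3 had intervals that included 0. No degree of freedom is left to test these differences against a spread between libraries.

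As a share of the summed FPKM of the 8 genes, Batf held more and Jund less in the Tfh-like than in the Th0 libraries. Batf made up 3.04%, 4.31%, 9.07% and 19.5% of the sum in library order. Jund made up 42.7%, 37.1%, 24.2% and 23.3%. Junb held the largest share in each library, 51.8%, 54.3%, 60.9% and 52.5%. The Fos family held 1.92%, 3.59%, 4.396% and 3.47%, and Fosl2 was 67.5% to 94.7% of that family's FPKM.
The summed FPKM of the 8 was 759, 562, 1143 and 1072. The ratio of Junb to Batf FPKM was 17.1, 12.6, 6.72 and 2.69 in library order. Batf to Fosl2 stood at 2.33, 1.78 and 2.18 in the first 3 libraries and at 6.33 in the Tfh-like Tox2 library. These shares and ratios depend on the exon length used in FPKM, and they say nothing of protein or of dimers.

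**Figure D3:**
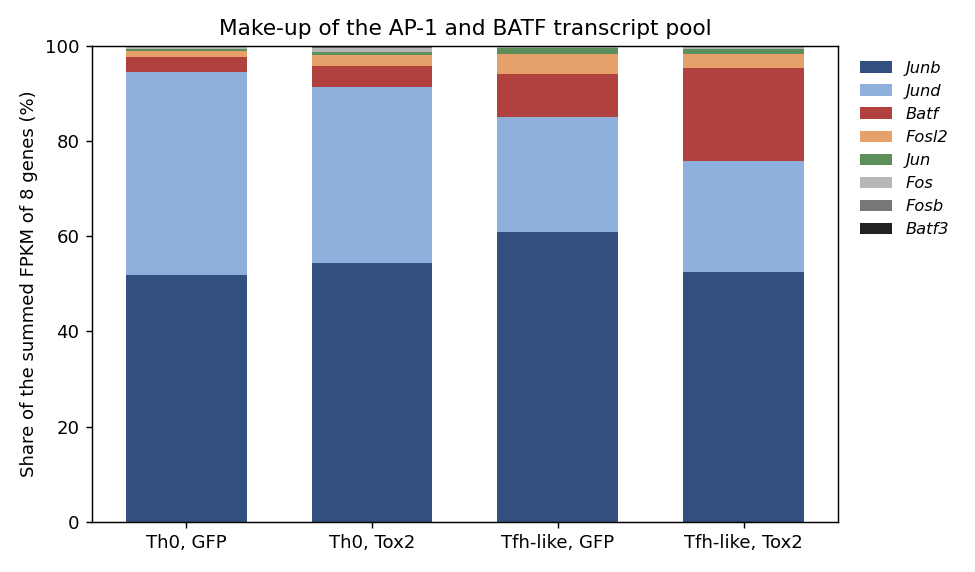
Share of each gene in the summed FPKM of the 8 genes, 1 stacked bar for each library, each bar scaled to 100%. The Batf part is widest in Tfh-like with Tox2 (19.5%) and narrowest in Th0 with GFP (3.04%), while the Jund part is narrower in both Tfh-like libraries than in both Th0 libraries.

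Over all genes 14.3% rose and 9.96% fell with the culture, and 4.09% rose and 2.78% fell with Tox2. Of 11 other small bZIP factors measured, 4 rose and 1 fell in Tfh-like (median log2 fold 0.43). Nfil3, a basic leucine zipper repressor induced by cytokines, rose by 1.88 (SE 0.10), Maff by 1.04, Mafg by 0.60 and Atf7 by 0.55. Atf2 fell by 0.49 on the log2 scale, a call lost with DESeq2. With Tox2, 1 of the 11 rose, Jdp2, a dimerization partner and repressor of Jun proteins. Jdp2 counts were 238, 946, 404 and 994, a log2 fold of 1.59 (SE 0.17, edgeR adjusted p = 0.00692); both Tox2 libraries were above both GFP libraries. Fosl1, the remaining Fos family gene, had 85, 55, 52 and 42 counts and passed for neither.

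In the list of MAP kinase and SRF inputs to AP-1, 5 of 20 measured genes rose and 2 fell with the culture (median 0.16). The shares over all genes were 14.3% and 9.96%. The largest rise was of Malt1, which encodes a paracaspase that acts downstream of the antigen receptor, by 1.36 (SE 0.11), then the kinase genes Map3k1 by 0.73, Mapk3 (ERK1) by 0.70, Mapk14 (p38) by 0.60 and Map2k1 (MEK1) by 0.56. Elk4 and Map3k7 had log2 folds of -0.48 and -0.43, and both calls were lost with DESeq2, which left 5 higher and 0 lower. For Tox2, 0 of the 20 passed with edgeR, DESeq2 or limma-voom, where 6.87% of all genes passed in edgeR. An unadjusted edgeR p under 0.05 was found for 2 of the 20 and for 27.4% of all genes.

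Of all genes, 9.96% were lower and 14.3% higher in Tfh-like, and 2.78% were lower and 4.09% higher with Tox2. The list of genes that turn over or silence AP-1 signalling had 6 of 10 measured members lower in Tfh-like and 0 higher (median -0.47), and 5 lower with DESeq2 or with length trends removed. Most of these encode dual-specificity phosphatases of MAP kinases: Dusp5 (log2 fold -2.34, SE 0.19), Dusp1 (-1.15, SE 0.15), Dusp4 (-0.87), Dusp6 (-0.59) and Dusp2 (-0.54); the sixth was Trib1 (-0.41). With Tox2, Dusp1 rose by 1.16 (SE 0.15) and Trib1, a scaffold for the COP1 ubiquitin ligase, by 0.70, and Dusp6 fell by 1.06 on the log2 scale (SE 0.10), so 2 rose and 1 fell (median 0.19); with length trends removed 1 rose and 1 fell.

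Among 8 DNA-binding partners, 2 rose and 3 fell with the culture (median 0.07): Stat3 by 1.24 and Nfatc2 by 1.06, against Rel (-1.05), Irf8 (-0.95) and Nfatc1 (-0.72). With Tox2 Ets1 rose by 0.63 and Nfatc3 by 0.46, and Irf4, the partner of BATF at composite sites, fell by 1.09 on the log2 scale (SE 0.13, edgeR adjusted p = 0.0102). The counts of Irf4 were 5652, 3224, 7632 and 3146 in library order, so Irf4 was lower with Tox2 in both cultures. Its log2 fold with Tox2 was -0.86 in Th0, where Batf was 1.03-fold, and -1.31 in Tfh-like, where Batf was 2.01-fold. The median of the list with Tox2 was 0.39, and 1 gene rose and 1 fell with DESeq2 or with length trends removed. For comparison, 14.3% of all genes rose and 9.96% fell with the culture, and 4.09% rose and 2.78% fell with Tox2.

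Of 15 measured genes known as BATF or AP-1 targets in T cells, 7 rose and 3 fell with the culture; Il23r, Il21 and Il1r1, also far higher in Tfh-like, are not counted because only the Tfh-like libraries reached the CPM filter. Of all 18, 1 rose and 4 fell with Tox2 (median -0.62). Among all genes 14.3% rose and 9.96% fell with the culture, and 4.09% rose and 2.78% fell with Tox2. Counts of Il1r1, which encodes an IL-1 receptor, were 9, 10, 157 and 487, and those of Il21, a Tfh and Th17 cytokine, were 4, 2, 1015 and 863. Il17a rose by 5.58 (log2). The 3 that fell were Fasl (-1.84), Il2 (-1.34), the T-cell growth factor, and Ccr6 (-0.68), a chemokine receptor of Th17 cells. With Tox2 Gzmb (-3.13), Il17f (-2.92), Il17a (-2.78) and Fasl (-1.10) fell and Bcl6 (1.45) rose; with the length trend of each library removed, 2 and not 4 fell. Il1r1 was higher with Tox2 in Tfh-like by 1.59 on the log2 scale and by 0.09 in Th0, and did not pass (edgeR adjusted p = 0.0514).

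Transcripts of Fos, Fosb and Jun also respond to cell handling, so 18 other immediate early and stress genes are given beside them. With the culture 5 rose and 7 fell (median 0.01): Ier3 (2.64), Klf6 (1.18), Klf4 (0.63) and Dnajb1 (0.52) were the highest, and Nr4a3 (-2.11), Nr4a1 (-1.67), Egr3 (-1.39) and Egr1 (-0.66) the lowest. With DESeq2, 3 rose and 7 fell. Shares over all genes in edgeR were 14.3% higher and 9.96% lower for the culture, and 4.09% higher and 2.78% lower for Tox2. With Tox2, 5 rose and 1 fell (median 0.06): Ier5l (1.22), Klf4 (0.99), Nr4a2 (0.79), Btg2 (0.76) and Nr4a1 (0.63) against Ier2 (-0.53); with length trends removed 4 rose and 0 fell. The heat shock genes Hspa1a and Hspa1b had 29 to 74 counts in a library and passed for neither. Their part in the Fos and Fosb values was not tested.

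**Figure D4:**
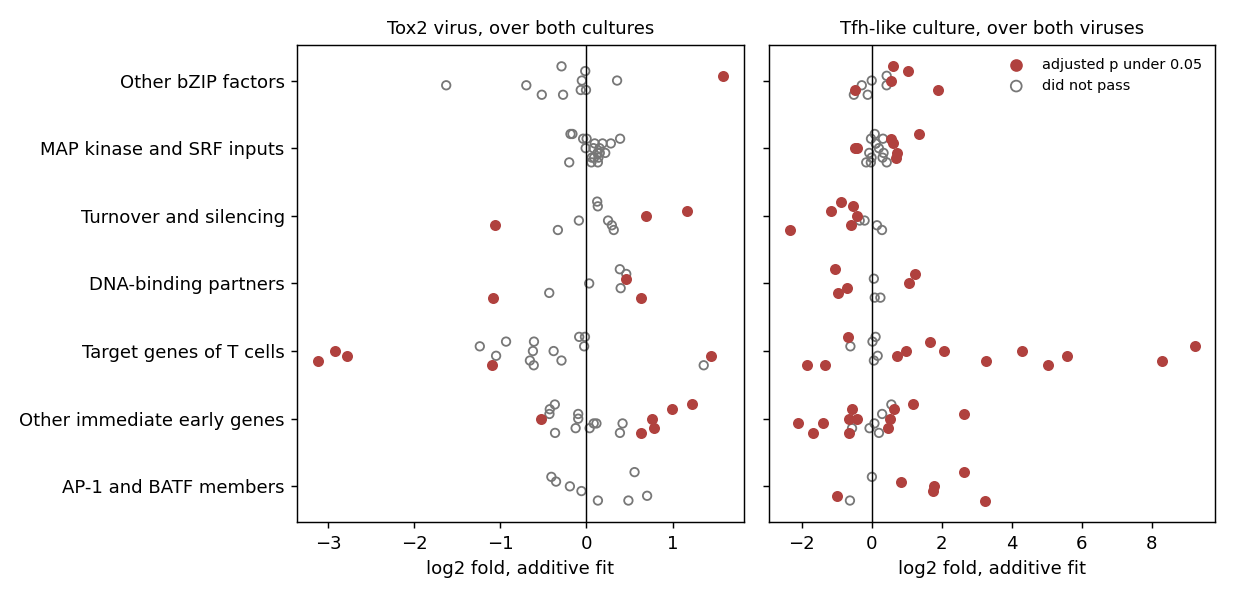
Log2 fold in the additive fit for Tox2 (left) and for the Tfh-like culture (right), 1 point for each measured gene of 6 pathway lists and of the 8 AP-1 and BATF genes; points are spread vertically only for display. Filled points passed edgeR's test at an adjusted p under 0.05. In the bottom row 0 of 8 points are filled on the left and 6 on the right, Batf3 among them. Batf3, and Il21, Il23r and Il1r1 in the target row, reached the CPM filter only through the Tfh-like libraries. These genes had to differ, so their filled points on the right are no test.

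The patterns of the 8 genes were compared by the root mean square distance of log2 CPM over the 4 libraries after centring each gene. Fosl2 and Jun were the closest pair among them (distance 0.16), followed by Fos and Fosb (0.22) and by Batf and Batf3 (0.34). Fosb and Batf3 were the farthest apart (1.91). Distances of Batf3 rest on its 4 and 5 counts in the Th0 libraries and on the prior count. Because it passed the filter through the Tfh-like libraries only, its higher level there was fixed in advance. Fos and Batf lie 209395 bases apart on chromosome 12 (85473890 to 85477273 and 85686669 to 85709087, both plus strand, GRCm38) and had a distance of 1.63.
The 9989 other genes compared all reached a CPM of at least 5 in 1 library or more. Of these, those most like Batf were Fgl2 (0.11), Npnt (0.20) and Il1r2 (0.21). Fgl2, which encodes fibrinogen-like protein 2, had 60, 57, 216 and 531 counts in library order, so it was also highest in the last. Il1r2, the decoy receptor for IL-1, had 44, 64, 238 and 601 counts. Fgl2 and Il1r2 reached that CPM in the Tfh-like libraries only, so their higher level there was fixed in advance.
Most like Batf3, with the same limit, were Sgk1, Abcc3 and Syt5 (0.09 to 0.17). Most like Fosl2 were Fscn1, Nlgn2 and Klf7 (0.07 to 0.09). Most like Jun were Satb1 (0.03), a chromatin organizer of T cells with 2807, 3140, 10857 and 8580 counts, and Tnip2 and Myh7b. Myh7b reached a CPM of 5 in the Tfh-like GFP library only, so its higher level there was fixed in advance.
Fos was followed most closely by Fam53b, Fam221a and Pecam1 (0.01 to 0.03), and Fosb by Nsg2 (0.05) and St8sia4 (0.07). The nearest to Junb were Kcnab2, Klhl8 and Rhbdf2 (0.03 to 0.05), and the nearest to Jund were Tnfsf9, Smg9 and Supt4a (0.03 to 0.05). With 4 libraries many genes can share a shape, and likeness here describes these libraries only.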

How the data were processed

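Per the labels' protocols, total RNA was taken up in Trizol and sequencing libraries came from BGI. The authors deposited 2 values per gene: whole read counts, not normalized, and FPKM, named so per the file headers. Among the tools in the submitters' processing notes are featureCounts, Bowtie2 and Trim Galore 0.4.4, beside the build mm10, with no role; for strand setting and annotation, nothing is given in the sources used here. The lowest value of the second-highest CPM over the listed genes was 0.658, so the gene list is itself filtered.

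TMM scaling (edgeR 4.0.16, R 4.3.3) was applied, and a gene was kept if 1 library or more reached a CPM of 1, which left 10960 genes with all 8 members; Batf3 passed through the Tfh-like libraries only. Library pairs were described by log2 folds with a prior count of 2 and exact 95% conditional binomial intervals on the ratio. The additive fit (culture plus virus) had 1 residual degree of freedom and was tested by quasi-likelihood in edgeR, with Benjamini-Hochberg adjusted p-values; the common biological coefficient of variation was 0.105. Reads carry no molecular identifiers and are not independent molecules, so intervals cover only counting error; a count of 0 would allow up to 3 counts (0.219 to 0.230 CPM). Nothing says that the libraries came from separate animals. Alternatives were other scalings, filters, prior counts, DESeq2 1.42.0, limma-voom (limma 3.58.1) and removal of each library's trend on gene length (from FPKM divided by count).

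The members and lists were chosen with earlier results of these data known. Named are all members, up to 4 called genes of each list per effect (all where 5 or fewer were called), and the 3 genes most like each member (1 of those for Fosb is not reported here); Fosl1, the heat shock genes, Prdx2, Xcr1, and further list members were named after their values were seen.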

Additional observations from a re-analysis of the deposited data

Results flagged for a closer look

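Fosl2 had folds with Tox2 in opposite directions in the 2 cultures, each with a counting interval that excluded no difference: a log2 fold of 0.43 in Th0 and -0.53 in Tfh-like. Such opposite folds were found for 493 of 10960 genes (4.50%). Jund had opposite folds between the cultures with the 2 viruses, -0.25 with GFP and 0.26 with Tox2, as did 355 genes (3.24%). With 1 library per group, neither difference was tested against a spread between libraries.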

How the results depend on the processing

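Of 378 values of single genes under alternatives, 358 kept their direction and side of the threshold or stayed within their counting interval. Scaling factors came from all listed genes before filtering, so the folds of library pairs could hardly change under the alternative filters. Those values among the 358 are no check. The culture fold of Jund, 0.01 in the main analysis, was -0.0052 with DESeq2's size factors, -0.064 when scaled by the sum of counts, -0.0050 with the DESeq2 test and -0.020 with length trends removed. Fos passed for the culture when scaled by the sum of counts (-0.69, edgeR adjusted p = 0.0395), and Fosb did not with DESeq2 (adjusted p = 0.0595). The genes 2-fold apart with Tox2 in Tfh-like went from 1 to 0 of the 8 with DESeq2's size factors. Over all genes, calls for Tox2 went from 753 to 1193 when scaled by the sum of counts, to 492 with DESeq2 and to 392 with length trends removed, and calls for the culture from 2656 to 1609 with DESeq2; the cause was not tested. Scaled by the sum of counts, the culture calls split into 1500 higher and 1649 lower, against 1564 and 1092. Batf with Tox2 had adjusted p between 0.0940 and 0.181 over the alternatives. With length trends removed the log2 fold of Fosl2 with Tox2 in Th0 was 0.27 and not 0.43. In the same comparison Junb was at -0.29 and not -0.39, and Jund at -0.51 and not -0.67. No library could be left out, since the additive fit then has no residual degree of freedom. No paired analysis was possible because each group has 1 library. Batf3 has few counts, which leaves its folds imprecise, and was not tested at a CPM of at least 5, where 5 of the other 7 genes passed for the culture.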
